A study of Mus musculus with 10 samples.

Results

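The kidney cortex of mice aged 4 weeks was profiled cell by cell 1 day after an injury and set against normal kidney cortex. On day 1 the proximal tubule cells had many-fold more RNA for Havcr1, the fibrinogen chains, Krt8 and S100a6 than control proximal cells. Many transcripts of transport and metabolism, among them Slc22a7, Inmt and Kap, were reduced many-fold in the summed RNA of those cells. Transcripts of dividing cells rose in the proximal tubule, and Lcn2 and Clu in the thick ascending limb and distal nephron. Sprr2f rose in collecting duct principal cells and Ccl20 in cells gated as distal convoluted tubule. Cells gated as neutrophils and monocytes were found in the day 1 library and not in the control, and the proximal tubule made up a smaller share of the cells.

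The comparison rests on 9702 cells, 6134 from the control library and 3568 from the day 1 library, of 52797 cells in the 10 libraries of the series. A barcode was taken as a cell when it had at least 500 genes and at most 50% of its UMIs (unique molecular identifiers, each standing for 1 captured RNA molecule) from mitochondrial genes. The control is labelled as normal mouse kidney and the other library as injured kidney at day 1. The labels name no transgene, drug or genotype for either, and they give no kind of injury, strain, sex or number of animals. Each side is 1 library, so there is no p-value or standard error anywhere below. Ratios carry 95% intervals that cover counting error only, and a difference between these libraries cannot be told apart from a difference between animals or preparations.

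The proximal tubule reclaims sugar, amino acids, phosphate and proteins from the filtrate, runs largely on fatty acid oxidation, and is the segment most readily damaged by loss of oxygen or by toxins. Injured proximal cells are known to lose their transporters, to show the phagocytic receptor KIM-1 (Havcr1), and keratins, and to divide to replace lost neighbours. The thick ascending limb, distal convoluted tubule and collecting duct fine-tune salt, calcium, magnesium, acid and water, and are known sources of the secreted injury marker neutrophil gelatinase-associated lipocalin (Lcn2).

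The control library was the deeper one. It held 31632205 UMIs over 6745 barcodes, of which 611 failed the filters, and the median kept cell had 2661.5 UMIs and 1099 genes. The day 1 library held 8932537 UMIs over 3585 barcodes, 17 of which failed, with a median of 1438.5 UMIs and 797.5 genes. The mitochondrial share of the median cell was 23.6% in the control and 14.1% on day 1. Both libraries carried Y-linked RNA (Ddx3y, Eif2s3y, Kdm5d and Uty summed) at 177.8 and 155.5 CPM (UMIs of a gene per 1000000 UMIs), with Xist at 0.408 and 0.899 CPM. The pair shared 1 cell barcode, against at most 4 in any pair of the 10 libraries, and no doublets were removed.

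Droplets can hold free RNA from other cells, and no profile of empty droplets was analysed here. Haemoglobin RNA was found in 2.48% of control cells and 77.4% of day 1 cells, at 204.5 and 2244 CPM. Only 1 and 17 cells drew more than 10% of their UMIs from haemoglobin genes. In the other libraries the share of cells was 6.48% on day 2, 31.8% on day 4 and 68.6% and 6.91% on day 7. It was 60.6% and 55.9% on day 11 and 23.5% and 20.9% on day 14. Beside these values, the tubule genes that lead the comparison are also set against their level in the endothelial cells of the same library, a class known to lack most tubule transcripts. A ratio near 1 means that the gene was no higher in CPM in the tubule class than in endothelium. For genes that endothelium makes itself, such as Sparc, Egr1, Igfbp7, Klf6, Hspb1, Col4a1, S100a6, Sox4 and Vcam1, that ratio does not measure free RNA.

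Cells were sorted into classes by raw marker UMIs. A cell entered the class for which it had a UMI of the most distinct markers, of 8 markers a class and 14 classes, with at least 2 markers and more than for any other class. The names follow that rule: in the control, the distal convoluted tubule list was nearly as high in principal cells (14404 CPM beside 16300 CPM of their own list), and it exceeded the intercalated cells' own list (14796 beside 9238 CPM). Over all kept day 1 cells, the distal convoluted tubule list was led by S100g with 18342 and Tmem52b with 4550 UMIs. Slc12a3 had 1161, Calb1 871, and Trpm6, Trpv5, Slc8a1 and Pvalb 77, 76, 53 and 40. Whether all day 1 cells of that gate belong to the distal convoluted tubule was not tested. The 8 proximal markers together stood at 17086 CPM in proximal-gated control cells and 864 CPM in endothelium-gated ones. As these markers chose the cells, that contrast follows in part from the rule.

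The proximal tubule gate held 3794 control cells, 61.9% (exact 95% interval 60.6 to 63.1), and 1051 day 1 cells, 29.5% (28.0 to 31.0). With every cell thinned to 1000 UMIs, which leaves out 359 control and 870 day 1 cells below that depth, the shares were 62.0% and 28.7%. The thick ascending limb held 13.5% and 11.5%, the distal convoluted tubule 4.27% and 10.1%, and principal cells 4.29% and 8.94%. Endothelium held 4.32% and 6.42%, and intercalated cells, podocytes and stroma each between 1.27% and 2.27% in both libraries. Shares within 1 library sum to a whole, so fewer proximal cells and more of the other classes cannot be told apart.

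The cells that met no gate increased from 338 (5.51%) to 829 (23.2%), and from 5.52% to 24.5% after thinning. On day 1, 551 of them (66.5%) had a tie between classes and 278 (33.5%) had at most 1 marker of any class. General tubule markers were common among them, with 676 of the 829 cells (81.5%) carrying at least 2, and 586 (70.7%) carried at least 1 proximal marker. Their median depth was 1113 UMIs, against 1854 in proximal-gated day 1 cells. Their day 1 level of Clu was 6599 CPM against 1064 CPM in the proximal gate, and of Havcr1 555 against 2247 CPM. Genes of other cells were also higher in them than in the proximal gate, such as Ccl2 (7.41-fold), Fn1 (12.9-fold) and Itga8 (9.17-fold), and they held 28.1% of Lyz2 UMIs, so their class is not known from these markers.

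**Figure D1:**
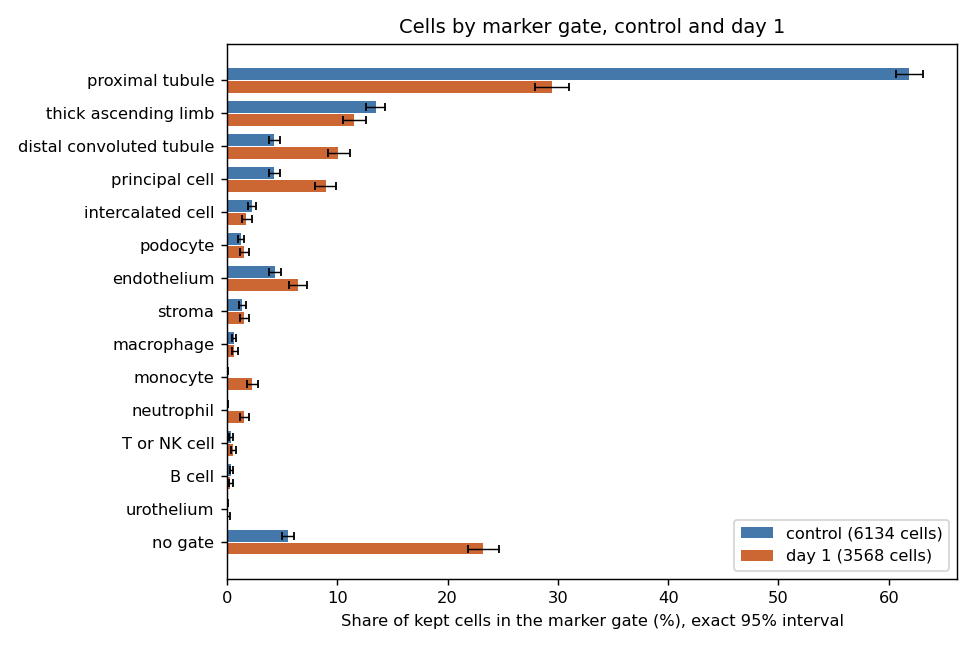
Share of kept cells in each marker gate (%, x axis) in the control (blue) and day 1 (orange) libraries, with exact 95% intervals that cover counting error only. The proximal share fell from 61.9% to 29.5% and the share without a gate increased from 5.51% to 23.2%.

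Cells gated as neutrophils and monocytes were counted in the injured library and not in the control, as were 4 cells (0.112%) gated as urothelium. The neutrophil gate (S100a8, S100a9, Retnlg, Cxcr2 and others) held 55 day 1 cells (1.54%) and the monocyte gate (Ly6c2, Ccr2, Plac8 and others) 82 (2.30%). Both gates had 0 of 6134 control cells, where 3 cells would be 0.0489% and the exact interval reaches 0.0601%. Together they made up 3.84% of day 1 cells, and 2.002% of those with at least 1000 genes. The 55 neutrophil-gated cells also held 55 Krt8, 51 Sprr2f and 31 Fgg UMIs, beside 90, 50 and 24 in the 229 endothelium-gated cells. Whether some of those 55 are tubule cells or doublets was not tested. Macrophages, which reside in the kidney, were at 38 (0.619%) and 24 (0.673%), T or NK cells at 21 and 19, and B cells at 23 and 11. Summed over all cells, S100a8 and S100a9, the calprotectin subunits of neutrophils, went from 9 to 1454 and from 15 to 2035 UMIs. The neutrophil gate held 50.6% and 54.5% of those day 1 UMIs. Both are gate genes that chose the cells, so these shares are a description. Of the S100a8 UMIs, 16.0% lay in cells without a gate and 13.0% in the proximal gate.

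Summed over all cells, 1585 of 8750 genes were at least 2-fold higher on day 1 (18.1%) and 575 at least 2-fold lower (6.57%), among genes with a mean of at least 10 CPM. Between the 2 libraries of day 7, day 11 and day 14, 1.47%, 0.834% and 0.794% of genes passed 2-fold in either direction, against 24.7% here. The labels do not say whether the 2 libraries of a day come from different animals, so these shares may not cover spread between animals. The median gene was higher on day 1 by 0.34 on the log2 scale. Scaling by the median ratio of genes with at least 50 CPM, a shift of 0.26, gave 1039 higher and 828 lower. A gene below the minimum in the control passes the level filter only if its day 1 level lies above it. One far below the minimum is then always counted as higher. Among the 7776 tested genes that also reached 10 CPM in the control, 936 (12.04%) were higher and 575 (7.39%) lower. Genes at that level in the control with a lower mean were left out. Asking for the control level as well keeps every fall among tested genes and drops some rises, so neither split is free of the filter. The counts at the control level in the gates and lists below are also of tested genes. In such sums, fewer cells of a class and less RNA per cell cannot be told apart.

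The steepest rises were in secreted and epithelial products, together with the neutrophil genes S100a8 and S100a9 given above. Sprr2f, a small proline-rich protein of stratified epithelia, had 0 control UMIs and 6424 on day 1, at least 7084-fold higher against a floor of 3 control counts. Its neighbour Sprr2g had 0 and 1424, and the 2 genes are similar enough that reads could be split between them. Ccl20, which attracts CCR6-bearing lymphocytes, went from 1 to 1090 UMIs. Havcr1 went from 39 to 8912 UMIs (1.32 to 1001 CPM, 756-fold, 553 to 1064) and Lcn2 from 87 to 11359 (2.95 to 1276 CPM, 432-fold, 350 to 540). Fgg, the fibrinogen gamma chain, went from 8 to 2513 UMIs.

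On day 1 most of these genes had the larger part of their UMIs in 1 class, and Lcn2 did not. The proximal gate, with 29.5% of the cells, held 84.5% of Havcr1 UMIs and 83.9% of Fgg UMIs. Principal cells, with 8.94% of the cells, held 81.8% of Sprr2f and 70.2% of Sprr2g. The distal convoluted tubule gate held 54.5% of Ccl20. Lcn2 was spread over principal cells (32.0%), thick ascending limb (24.9%) and distal convoluted tubule (16.1%), and Spp1, the secreted phosphoprotein osteopontin, was led by the thick ascending limb (40.2%). Clu, the secreted chaperone clusterin, lay mostly in principal cells (35.1%) and the distal convoluted tubule (21.8%). The heat map of 20 genes by gate shows these locations.

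Most of the steepest falls over all cells were in known transcripts of kidney tubule. BC018473, an uncharacterised transcript, went from 3731 to 4 UMIs, Inmt, an amine methyltransferase, from 14443 to 42 (104-fold lower), and Egf, the growth factor made by the thick ascending limb and distal convoluted tubule, from 55810 to 178 (1895 to 19.999 CPM, 94.8-fold lower, 81.8 to 110). Acsm3, a medium-chain acyl-CoA synthetase, was 71.0-fold lower, and Pvalb, a calcium buffer of the distal convoluted tubule, 67.1-fold. Slc5a8, a lactate transporter, was 37.8-fold lower, Akr1c14 37.6-fold and Slco1a1, an organic anion transporter, 36.4-fold. BC018473 also differed between the later days. It stood at 127 CPM in the control and 24.2 to 40.0 CPM in the day 11 libraries, but at 0.10 and 0.14 CPM in the day 14 libraries. AA465934, which also fell, was at 74.95 CPM in the control, 46.0 and 79.3 CPM on day 11 and 2.44 and 2.92 CPM on day 14. Whether their falls belong to the injury was not tested.

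**Figure D2:**
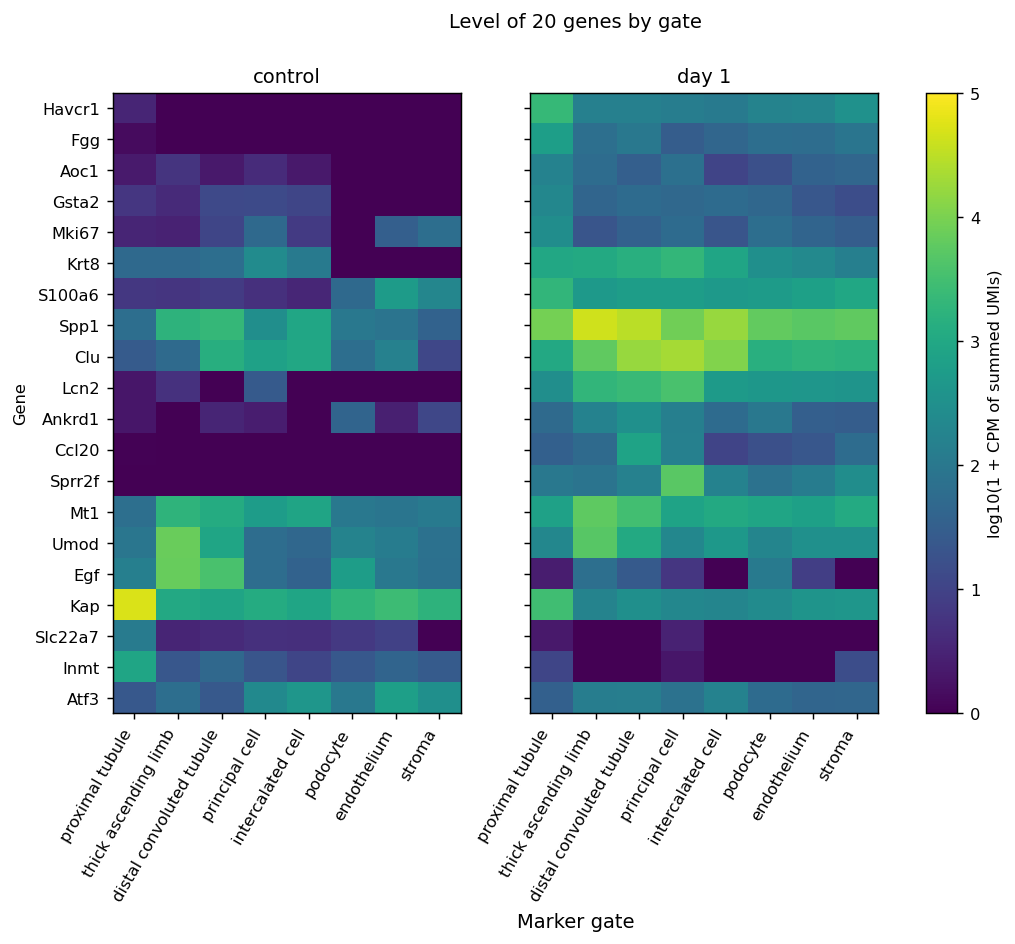
Level of 20 genes (rows) in 8 marker gates (columns) of the control (left) and day 1 (right) libraries, as log10 of 1 plus CPM. On day 1 Havcr1 and Fgg peak in the proximal tubule, Sprr2f in principal cells, Ccl20 in the distal convoluted tubule and Lcn2 in principal cells, while Kap and Egf are lower than in the control.

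Proximal-gated cells gained injury, fibrinogen and cell division transcripts and had less RNA for many transporters and enzymes. Of 3048 genes with a mean of at least 50 CPM, 696 were at least 2-fold higher (22.8%) and 311 at least 2-fold lower (10.2%). The 8 marker genes were left out because they chose the cells. Passing 2-fold either way were 33.0%, against 2.99%, 0.262% and 0.534% between the 2 libraries of days 7, 11 and 14, with the same limit. The median gene was higher by 0.32 on the log2 scale, and median-ratio scaling turned the split into 445 higher and 444 lower. Among the 2515 tested genes that also had 50 CPM or more in the control, 347 (13.8%) were higher and 311 (12.4%) lower. Set against day 1 endothelium, 150 of the 696 risen genes (21.6%) were at least 2-fold above it, and 294 (42.2%) had an interval above 1. Of the 311 fallen genes, 279 (89.7%) had been at least 2-fold above endothelium in the control. The proximal counts set against endothelium here are among those that chose the genes, day 1 counts for the risen and control counts for the fallen. Both shares are favoured by that choice, and the share over all tested genes was not computed.

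**Figure D3:**
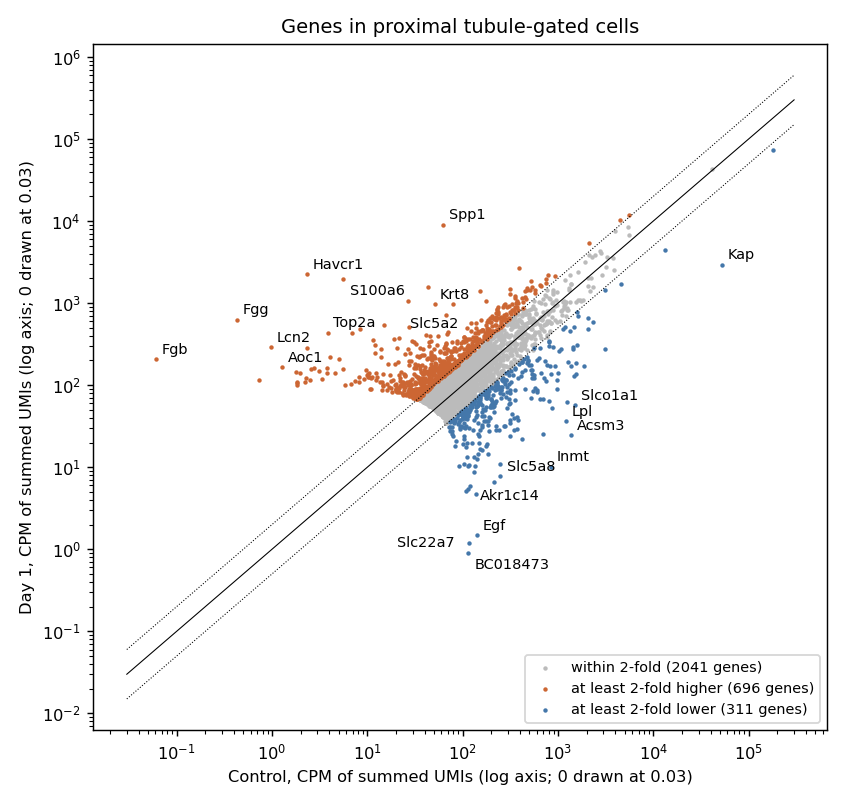
CPM of each tested gene in proximal-gated cells, control (x, log axis) against day 1 (y, log axis), with gate genes left out; the solid line marks equal levels and the dotted lines 2-fold. The 696 higher genes (orange) include Havcr1, Fgg and Fgb far above the line, and the 311 lower ones (blue) include Kap, Inmt and Slc22a7 far below it.

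Havcr1, the KIM-1 receptor that lets proximal cells engulf dying neighbours (chr11:46735080-46779578, plus strand, mm10), was among the genes that rose most. In the proximal gate it had 38 UMIs in the control and 7529 on day 1, which is 2.33 and 2247 CPM, a 965-fold difference (702 to 1365). Its day 1 level was 11.8-fold (9.45 to 15.0) above that of endothelium. At 1000 UMIs a cell, 0.166% of control and 56.6% (53.2 to 59.9) of day 1 proximal cells had a Havcr1 UMI, and 0.896% and 64.8% without thinning. In day 1 endothelium, with a median of 1179 UMIs against 1854, the thinned share was 17.9%. The proximal share thus lay above that of endothelium, and 378 of the 870 thinned day 1 cells had no Havcr1 UMI.

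The other injury genes of the proximal gate split by how they stood to endothelium. Of the 30 genes of the tubular injury list, 17 had enough counts in this gate, and all 17 of those were higher, beside 22.8% of all tested genes, with a median log2 ratio of 5.31 beside 0.32 for all tested genes. Only 3 of them reached 50 CPM in the control, so the filter itself favours that outcome. Krt8, an epithelial keratin, went from 50.7 to 976 CPM (19.2-fold) and stood 4.40-fold above endothelium, and Krt20, with 0 control UMIs and 138 on day 1, stood 16.7-fold (2.95 to 664) above the 1 UMI of endothelium. Spp1 went from 62.4 to 9067 CPM (145-fold) but was 1.76-fold above endothelium. Lcn2 (297-fold), Clu (39.8-fold) and Anxa3, an annexin (158-fold), stood at 0.704, 0.587 and 1.07 times the endothelial level. In CPM, Lcn2, Clu and Anxa3 were therefore not above endothelium beyond counting error, and the part of free RNA in their rise was not tested. Endothelial cells were shallower (median 1179 against 1854 UMIs), so the same number of free molecules gives a higher CPM there. In UMIs, Lcn2 had 977 in 1051 proximal cells and 168 in 229 endothelial ones, and Clu 3564 and 735. Sox4 (15.8-fold), a transcription factor of injured tubules, and Vcam1, an adhesion molecule, stood at 0.829 and 1.19 times, but endothelium makes both.

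S100a6, a calcium-binding protein of dividing and stressed epithelia, went from 91 to 6645 UMIs in proximal cells (5.58 to 1983 CPM, 356-fold). Endothelium makes S100a6 itself, so the ratio of 2.92 between the classes on day 1 does not measure free RNA. Aoc1, the diamine oxidase, went from 21 to 558 UMIs (129-fold) and was 4.50-fold above endothelium. The proximal gate held 61.2% of all S100a6 UMIs of day 1.

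The fibrinogen chains and C3, acute phase proteins best known from liver, rose in the proximal tubule. Fgg went from 7 to 2109 UMIs (0.429 to 629 CPM), Fgb, the beta chain, from 1 to 698, Fga, the alpha chain, 53.8-fold and C3, the central complement factor, 59.4-fold. Against day 1 endothelium, Fgg stood 10.6-fold, Fgb 12.1-fold and C3 13.3-fold higher. These were the 4 genes of the 21 acute phase and complement genes with enough counts in this gate, beside 22.8% of all tested genes called higher, and 0 of the 4 reached 50 CPM in the control. Thinned, 0.0553% of control and 28.9% of day 1 proximal cells had a Fgg UMI, with 7.69% in endothelium. Among day 1 proximal cells, 24.8% (21.0 to 28.9) of the 492 with a Havcr1 UMI and 34.1% (29.4 to 39.1) of the 378 without one had an Fgg UMI. A cell without a UMI at this depth may still hold the transcript.

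Fgb and Fgg lie close together on mouse chromosome 3 (Fgb at chr3:83040141-83049863 on the minus strand, Fgg at chr3:83007724-83015049 on the plus strand), and Fgg overlaps Gm30097 on the other strand. Their promoters are shown because the pair rose together, and those of Inmt and Kap because they fell. The 250 bases before each RefSeq start (build GRCm38.p6, strand of the gene, 5′ to 3′) are given, with capitals for a match to AP-1 (TGANTCA) or STAT (TTCNNNGAA) in Fgb and to a TATA box (TATAAA) in Inmt and Kap. Fgb spans chr3:83049864-83050113, Fgg chr3:83007474-83007723, Inmt chr6:55174991-55175240 and Kap chr6:133853668-133853917.
Fgb: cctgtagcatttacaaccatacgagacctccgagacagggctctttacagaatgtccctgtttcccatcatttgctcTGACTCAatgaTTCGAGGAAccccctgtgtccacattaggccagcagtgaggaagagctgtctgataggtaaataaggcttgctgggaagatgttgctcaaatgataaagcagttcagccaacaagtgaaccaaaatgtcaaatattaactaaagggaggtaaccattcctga
Fgg: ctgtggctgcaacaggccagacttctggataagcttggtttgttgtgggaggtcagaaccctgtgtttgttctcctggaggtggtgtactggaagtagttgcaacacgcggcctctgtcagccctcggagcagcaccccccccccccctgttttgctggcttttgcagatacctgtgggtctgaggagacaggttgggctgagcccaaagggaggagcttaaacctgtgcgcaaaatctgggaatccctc
Inmt: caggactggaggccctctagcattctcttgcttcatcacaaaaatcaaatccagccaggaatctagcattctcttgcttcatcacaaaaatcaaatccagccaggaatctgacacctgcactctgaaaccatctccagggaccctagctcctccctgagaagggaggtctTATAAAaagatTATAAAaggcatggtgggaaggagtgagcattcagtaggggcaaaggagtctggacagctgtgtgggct
Kap: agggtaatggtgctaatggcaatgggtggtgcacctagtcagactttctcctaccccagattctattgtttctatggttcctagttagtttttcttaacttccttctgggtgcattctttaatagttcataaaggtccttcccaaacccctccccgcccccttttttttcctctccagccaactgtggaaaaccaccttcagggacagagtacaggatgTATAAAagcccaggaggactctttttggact
The Fgb window holds an AP-1 and a STAT match, and none of the 7 motifs searched occurs in the Fgg window. Over genes with a promoter in the table, 502 of the 696 higher and 243 of the 311 lower genes, the motif shares are given beside those of the 2251 tested genes and of all promoters. AP-1 letters, on either strand, were in 4.98% of higher, 4.53% of lower, 4.13% of tested and 6.87% of all 27025 promoters. STAT letters were in 5.18%, 4.12%, 5.198% and 7.18%, and an NF-kB consensus in 2.19%, 2.06%, 1.38% and 1.17%. E2F letters (TTTCCCGC) were in 1.79%, 0.823%, 1.87% and 0.929%, and TATAAA in 6.97%, 10.7%, 6.62% and 13.0%. The letters CAAAGTCCA, an HNF4 half-site pair, were in 0.398%, 1.23%, 0.355% and 0.381%, with 3 of the 243 lower promoters holding them. HNF1 letters were in none of the higher, lower or tested promoters. A letter match is a description and not a bound site.

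Genes of DNA replication and mitosis rose in the proximal gate. Mki67, the proliferation antigen Ki-67, went from 38 to 938 UMIs (120-fold) and Top2a, the DNA topoisomerase of dividing cells, from 63 to 1455 (112-fold). They stood 7.09-fold and 6.77-fold above day 1 endothelium, and the proximal gate held 74.3% and 76.8% of their UMIs. Of 24 cell cycle genes 8 had enough counts here and 8 were higher, beside 22.8% of all tested genes. They include Rrm2, a subunit of ribonucleotide reductase (55.2-fold), Pcna, the replication clamp (8.79-fold), and the cyclin Ccnd1 (2.74-fold). Only 1 of the 8 reached 50 CPM in the control.

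Counted per cell at 1000 UMIs, 0.360% of control and 25.7% (22.9 to 28.8) of day 1 proximal cells had UMIs of at least 3 cell cycle genes. Unthinned, the shares were 6.14% and 39.7%. The same thinned share on day 1 was 10.3% in endothelium, 9.23% in principal cells, 5.34% in the distal convoluted tubule and 1.97% in the thick ascending limb. It was 30.3% (26.2 to 34.6) in proximal cells with a Havcr1 UMI and 19.8% (15.9 to 24.2) in those without. With and without a Kap UMI it was 25.5% and 25.9%. Such a count reads RNA of these genes and does not show that a cell was cycling.

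The stress lists follow in turn, and differences between them were not tested. In the oxidative stress and metal list, 9 of 18 tested genes were higher and 3 lower in proximal cells, and 5 and 4 with median-ratio scaling, beside 22.8% and 10.2% of all tested genes. The glutathione transferases Gsta1 (1.96 to 140 CPM, 71.5-fold) and Gsta2 (5.09 to 208 CPM, 41.0-fold) led, at 5.17-fold and 9.38-fold above day 1 endothelium, and are close copies whose reads could be split. The metallothioneins Mt1 (66.6 to 718 CPM, 10.8-fold) and Mt2 (13.7-fold) bind zinc and copper. Mt1 stood at 1.04 times the endothelial level, and 48.0% of its day 1 UMIs lay in the thick ascending limb. Hmox1, which breaks down haem, went from 11.5 to 37.0 CPM (3.21-fold), with 124 day 1 UMIs against 1 in endothelium (15.0-fold in CPM, 2.64 to 597). Me1, a source of NADPH, fell 2.49-fold and Gstm1, another glutathione transferase, 2.01-fold.

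Of 13 tested immediate early genes 9 were higher and 0 lower, beside 22.8% and 10.2% of all tested genes, and of the 8 at 50 CPM in the control 4 were higher. The 9 were led by Egr1 (6.83-fold), Klf6 (6.30-fold) and Ier3 (4.23-fold), and Fos was 3.44-fold higher. Of 15 heat shock genes 2 were higher, the small heat shock proteins Cryab (19.7-fold) and Hspb1 (15.0-fold), and 3 lower, Hsph1 (3.51-fold), Dnaja1 (2.33-fold) and Hspd1 (2.06-fold), counts near the background. The 2 p53 targets with enough counts split, with Bax 2.36-fold higher and Ccng1 1.54-fold lower, the latter within 2-fold, and 0 were higher with median-ratio scaling. The cytoskeleton list was higher throughout, 21 of 21 tested genes, with Tmsb10, an actin-binding peptide, at 35.9-fold and Tubb5, a tubulin, at 25.3-fold. Of those, 10 reached 50 CPM in the control and all 10 were higher, and median-ratio scaling left 20 of 21.

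Of 22 tested proximal transport genes 9 were lower and 4 higher, beside 10.2% and 22.8% of all tested genes. The number of higher ones is thus near the background. Slc22a7, an organic anion transporter, went from 1925 to 4 UMIs (118 to 1.19 CPM, 98.8-fold lower), Slc5a8 from 246 to 7.76 CPM (31.7-fold) and Slc7a13, an acidic amino acid transporter of the straight tubule, from 689 to 25.7 CPM (26.8-fold). Slc22a12, the urate transporter, was 12.6-fold lower and Aqp1, the water channel, 11.2-fold. Against these, Slc5a2, the SGLT2 glucose transporter of the early proximal tubule, went from 115 to 365 CPM (3.19-fold higher). Slc13a1, a sulfate transporter, was 4.12-fold higher, Slc5a12, a lactate transporter, 3.48-fold and Slc7a7, an amino acid exchanger, 3.58-fold. On day 1 Slc5a2 stood 8.23-fold and Slc13a1 10.97-fold above endothelium. The gate pools cells of the early and the straight proximal tubule. In its sums, a shift in their mix and a change within cells cannot be told apart.

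The proximal cells kept by the gate had fewer of the markers that define it. Thinned to 1000 UMIs, they had UMIs of 5.36 of the 8 markers on average in the control and 2.99 on day 1. Slc34a1, the phosphate transporter and a gate gene, went from 1773 to 729 CPM (2.43-fold lower), and Miox, an inositol oxygenase and gate gene, from 2068 to 134 CPM (15.4-fold lower). Since these genes chose the cells, their values are a description. The gate can also have missed day 1 cells with the lowest marker levels, and how many was not tested.

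Most tested genes of the proximal metabolism list fell in the proximal gate. Of 19 proximal metabolism genes tested, 14 were lower and 0 higher, beside 10.2% and 22.8% of all tested genes. Their median log2 ratio was −2.04, against 0.32 over all tested genes. Kap, the androgen-regulated kidney protein (chr6:133849851-133853762, minus strand), went from 862868 to 9853 UMIs (52882 to 2941 CPM, 18.0-fold lower, 17.6 to 18.3). Inmt (chr6:55170626-55175043, minus strand) was 84.0-fold lower and Acsm3 56.3-fold. The gluconeogenic enzymes Pck1 (8.49-fold) and G6pc (9.79-fold), the fructose enzyme Khk (6.196-fold) and Cyp2e1 (11.2-fold) fell with them. Gatm, of creatine synthesis, and Dao, a D-amino acid oxidase, were within 2-fold. Outside the tested genes, Cyp24a1, which inactivates vitamin D, went from 0.429 to 59.4 CPM in this gate and stood 24.1-fold (4.27 to 956) above endothelium, which had 1 UMI.

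Kap shows the spread between cells. It made up 4.76% of the UMIs of the median control proximal cell and 0.0387% of the median day 1 cell. On day 1, 41.5% of proximal cells had no Kap UMI, and the highest 5% of cells had at least 1.15% of their UMIs from it. Control endothelium also carried Kap, which stood 19.7-fold lower there than in proximal cells. Egf and Pvalb, which also fell in the proximal gate, had control levels there of 1.43-fold and 1.23-fold those of endothelium.

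Part of the fatty acid oxidation list fell. Of 21 tested genes 7 were lower and 1 higher, beside 10.2% and 22.8% of all tested genes, and the higher one, Acaa2, was not past 2-fold under median-ratio scaling. The mitochondrial enzymes Acat1 (1530 to 187 CPM, 8.16-fold) and Acadm (5.18-fold), the peroxisomal enzyme Ehhadh (7.34-fold) and the fatty acid hydroxylase Cyp4b1 (11.4-fold) were lower. Cpt1a, the entry step for fatty acids, and Hadha and Hadhb, the trifunctional protein, were within 2-fold, and Lpl, the lipoprotein lipase, fell 33.4-fold. Mitochondrially encoded RNA moved in both directions. The ribosomal RNAs mt-Rnr2 (2.43-fold) and mt-Rnr1 (3.01-fold) were lower, while 13 protein-coding genes were between 1.24-fold and 2.59-fold higher, with mt-Nd2 and mt-Atp8 past 2-fold and mt-Nd2 alone with median-ratio scaling. The median proximal cell drew 22.9% of its UMIs from the mitochondrial genome in the control and 13.5% on day 1. Glycolysis was close to level, with Gapdh and Eno1 2.43-fold and 2.21-fold higher, the only 2 of 13 past 2-fold, and with median-ratio scaling 0 higher and 2 lower.

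**Figure D4:**
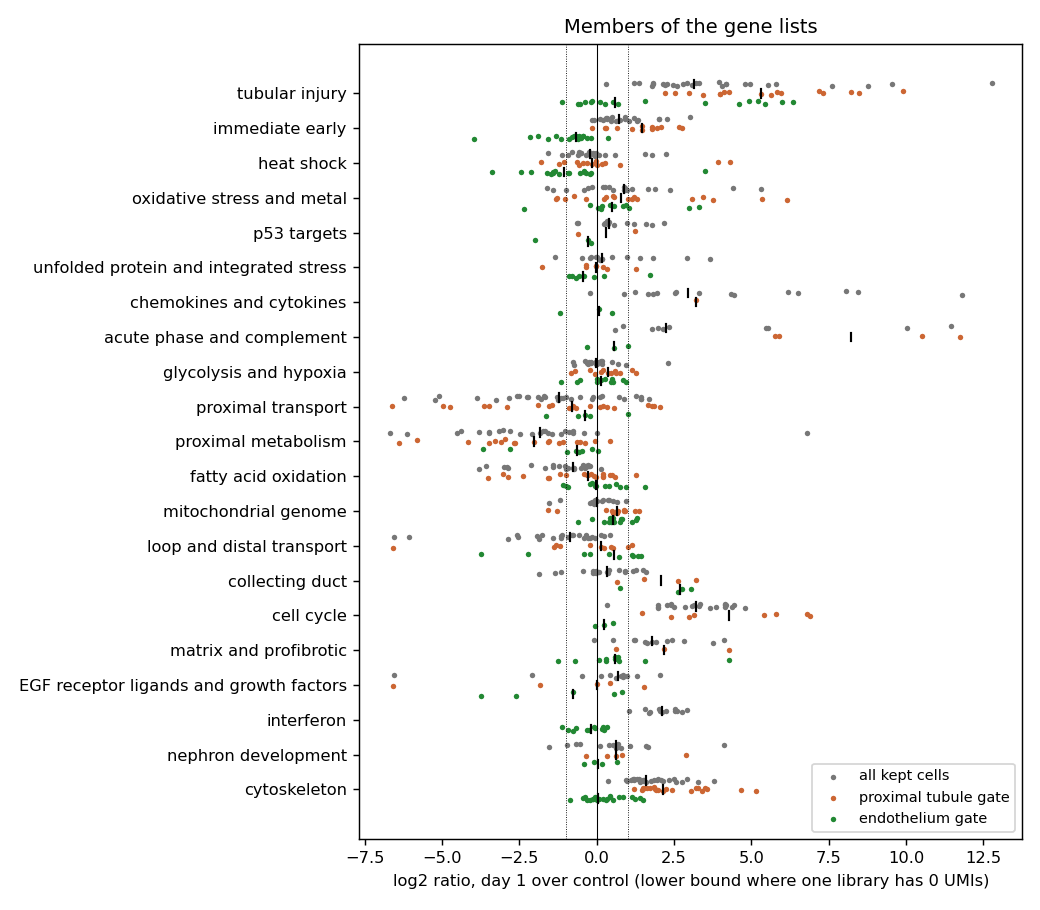
Log2 ratio of day 1 over control (x axis) for each tested member of 21 gene lists, summed over all kept cells (grey), proximal-gated (orange) and endothelium-gated (green) cells; black ticks are medians and dotted lines 2-fold. Tubular injury and cytoskeleton members lie to the right in the proximal gate and proximal metabolism to the left, while the endothelial medians of heat shock and immediate early members lie to the left of 0; a member with 0 UMIs in one library is drawn at its lower bound.

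The thick ascending limb rose in Lcn2, Clu and Spp1. Of 2925 tested genes 427 were higher (14.6%) and 253 lower (8.65%), or 270 and 367 with median-ratio scaling. Of the 2529 at 50 CPM in the control, 217 were higher and 253 lower. Lcn2 went from 26 to 2833 UMIs (4.14 to 1981 CPM, 479-fold) and stood 4.78-fold above day 1 endothelium. Thinned, 0.245% of control and 74.1% of day 1 cells had an Lcn2 UMI, against 30.1% of endothelial cells. Spp1 went from 1736 to 42601 CPM (24.5-fold) and Clu rose 117-fold, at 8.29 and 3.39 times the endothelial level. Ankrd1, a nuclear ankyrin protein induced by stretch, had 0 control and 229 day 1 UMIs (at least 336-fold higher) and stood 4.99-fold above endothelium. Havcr1 had 0 and 214 UMIs here, but at 0.788 times the endothelial level, and haemoglobin Hbb-bs rose 167-fold, beside the 77.4% of day 1 cells that carried haemoglobin RNA.

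Salt transport genes of the thick ascending limb fell in part. Of 17 tested loop and distal genes 8 were lower and 1 higher, beside 8.65% and 14.6% of all tested genes, among the lower Bsnd (4.13-fold), which encodes barttin, and the kinase Wnk1 (3.73-fold). Umod, which encodes uromodulin, the main protein of urine, is a gate gene and was 1.45-fold lower, within 2-fold. Slc12a1, Kcnj1, Cldn10, Cldn16, Egf and Ppp1r1a are gate genes too, and the 17 leave them out. Over all kept cells, Slc12a1 went from 55477 to 2285 UMIs and Kcnj1 from 7415 to 1016. Cldn10 went from 10221 to 806 and Cldn16 from 1665 to 397, beside 29446508 and 8900486 UMIs of all genes. These are raw counts and the day 1 total is the smaller, so the counts alone overstate a fall in CPM. In CPM, Cldn16 was within 2-fold. Tmem207 fell 14.8-fold, Ppp1r1b, a phosphatase inhibitor, 56.0-fold and Lpl 12.7-fold. Of 17 fatty acid oxidation genes 9 were lower and 8 within 2-fold, the lower ones including the coactivator Ppargc1a (3.74-fold). In this segment Hbegf, a ligand of the EGF receptor, was 9.04-fold higher and Cdkn1a, the p21 cell cycle inhibitor, 13.98-fold. The cyclin Ccnd1 was 2.64-fold lower here and 2.74-fold higher in the proximal gate. The difference between those segments was not tested.

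In the distal convoluted tubule gate 466 of 2686 genes were higher (17.3%) and 285 lower (10.6%), or 310 and 394 with median-ratio scaling. Among the 2237 at 50 CPM in the control, 221 were higher and 285 lower. Ccl20 had 0 control UMIs and 594 on day 1 (785 CPM, at least 451-fold higher) and stood 35.4-fold above day 1 endothelium. Lcn2 had 0 and 1832 UMIs (at least 1390-fold), Clu rose 12.2-fold and Spp1 14.3-fold, at 5.84, 9.21 and 5.86 times the endothelial level. Egf fell from 6321 to 19 UMIs (3671 to 25.1 CPM, 146-fold). Slc12a3, the thiazide-sensitive cotransporter that defines the segment, fell 2.14-fold as a gate gene. Sprr2f (0 to 119 UMIs) stood at 1.28 times the endothelial level. The antibody genes Igj (417 to 2 UMIs, 91.6-fold, 25.2 to 759) and Igkc (86.7-fold) fell here, in a gate that should not make them, and over all cells 6.35-fold and 3.80-fold.

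Principal cells of the collecting duct took on a squamous-type transcript. Of 3244 genes 283 were higher (8.72%) and 149 lower (4.59%), and of the 2918 at 50 CPM in the control 141 and 149. Sprr2f had 0 control and 5255 day 1 UMIs (5353 CPM, at least 2306-fold higher) and stood 43.4-fold above endothelium, and Sprr2g had 0 and 999 (15.9-fold above). Thinned, 0 of 246 control and 65.3% (59.3 to 71.0) of day 1 principal cells had a Sprr2f UMI, against 12.8% of endothelial cells. Lcn2 went from 24.8 to 3705 CPM (150-fold), Clu rose 28.8-fold and Krt8 7.84-fold, at 8.94, 11.4 and 9.29 times the endothelial level. S100a6 rose 154-fold. Among the genes that fell most were BC018473 (1033 to 0 UMIs), Cox7a1, a cytochrome oxidase subunit (16.9-fold), Thsd7a (6.84-fold) and the ammonia transporter Rhbg (6.46-fold). Atf3, an immediate early transcription factor, was 3.09-fold lower and Fos 2.07-fold lower in these cells.

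The 3 smaller classes had fewer cells, and their lists are led by genes with few counts. In intercalated cells 353 of 3168 genes were higher (11.1%) and 177 lower (5.59%), led by Lcn2 (0 to 110 UMIs) and, downward, AA465934 and Cbr2 (141 to 1 UMIs, 35.7-fold, 6.30 to 1418). Of 2782 at 50 CPM in their control, 177 were higher and 177 lower. Podocytes had 504 of 3529 higher (14.3%) and 297 lower (8.42%), led by 3 haemoglobin genes and, downward, Miox and Pvalb, which are tubule genes. Of 3076 podocyte genes at 50 CPM in the control, 180 were higher and 297 lower. In stroma 559 of 3542 were higher (15.8%) and 356 lower (10.1%), led by Timp1, a protease inhibitor, with 0 control and 35 day 1 UMIs. Of the 3016 genes at that level in the stroma control, 195 were higher and 356 lower. The falls in stroma, such as Akr1b7 (53 to 0 UMIs) and Cxcl13 (40 to 0), rest on small counts. In podocytes and stroma, then, several leading genes are those of other cells.

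In endothelium, part of the heat shock and immediate early genes fell, and a smaller share of genes passed 2-fold than in any of the other 7 gates. Of 3652 genes 192 were higher (5.26%) and 140 lower (3.83%), with a median log2 ratio of 0.02. Of the 3341 at 50 CPM in the control, 88 were higher and 140 lower. The genes that rose most were Lcn2 (0 to 168 UMIs), Krt8, Gm5615, Havcr1 (0 to 77) and Sprr2f (0 to 50), 4 of which are the tubule products described above. Heat shock genes were lower in 9 of 18, with Hspa1a 10.6-fold and Hsph1 5.41-fold lower, and 1, Cryab, higher. Immediate early genes were lower in 6 of 19 and higher in 0, with Atf3 from 392 to 17 UMIs (663 to 41.9 CPM, 15.8-fold lower, 9.75 to 27.4), Gadd45b 4.43-fold and Nr4a1 3.77-fold lower. Cdkn1a fell 3.96-fold. In proximal cells 9 of 13 immediate early genes were higher, and the difference between the classes was not tested.

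Calca, the calcitonin gene-related peptide gene, had 136 UMIs in control endothelium and 0 on day 1 (at least 31.1-fold lower), and Sost, an inhibitor of Wnt signals, 76 and 0 (at least 17.4-fold). Serpina1b went from 66 to 2 UMIs (22.6-fold lower, 6.02 to 191) and the sodium channel Scn7a fell 13.9-fold. Of 12 interferon genes tested in endothelium 0 were higher and 1, Bst2, was lower (2.18-fold), beside 5.26% and 3.83% of all tested genes, so the counts are near the background. Mt1 (7.85-fold) and Mt2 (9.92-fold) were higher in endothelium, where Mt1 stood close to its proximal level. A large part of the day 1 Mt1 UMIs lay in the thick ascending limb, as given above. The part of free RNA in the endothelial rises of Mt1 and Mt2 was not tested.

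Chemokine genes were higher over all cells in 14 of 16 tested, beside 18.1% of all genes, but only 6 of them reached 10 CPM in the control, of which 4 were higher. They included Ccl2 (15 to 1207 UMIs, 266-fold), Ccl7 (0 to 314) and Cxcl1, a neutrophil attractant (9.997-fold). Monocyte-gated cells held 36.2% of Ccl2 and cells without a gate 32.8%, while the proximal gate held 56.6% of Cxcl1. Only Cxcl16, a membrane-bound chemokine, had enough counts in proximal cells (12.4 to 115 CPM, 9.33-fold). The 13 interferon genes tested, of which 4 reached that level in the control, were higher by 2.07-fold (Bst2) to 7.49-fold (Gbp3). Of 13 matrix genes 11 were higher (9 with median-ratio scaling), and 6 of the 8 at that level in the control. The highest were Tgfbi (17.2-fold) and Fn1, fibronectin (13.4-fold). The day 1 sums hold cells gated as neutrophils and monocytes and the control sums hold none. A rise over all cells therefore does not place these genes in any class.

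In the remaining lists the counts over all cells lay nearer to the shares of all genes, 18.1% higher and 6.57% lower. For nephron development 4 of 15 genes were higher, with the adhesion gene Ncam1 at 17.3-fold and Npnt, nephronectin, at 3.16-fold, and Emx1 was 2.92-fold lower. Collecting duct genes had 4 higher and 3 lower of 19, with Aqp4 3.01-fold higher and Slc4a1, the anion exchanger of intercalated cells, 3.67-fold lower, and 2 higher with median-ratio scaling. In the unfolded protein and integrated stress list 4 of 15 were higher, led by the serine synthesis enzymes Phgdh (12.6-fold) and Psat1 (7.51-fold), and Herpud1 was 2.53-fold lower. Ddit3 and Atf4 were within 2-fold. Of 13 p53 targets 4 were higher, led by Cdkn1a (4.48-fold). Of 12 EGF receptor ligands and growth factor genes 2 were higher and 2 lower, the latter Egf and Fgf1 (4.27-fold).

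Set among all 10 libraries, day 1 was the peak for some proximal genes and not for others. Fgg in proximal-gated cells was at 0.429 CPM in the control, 629 on day 1, 31.9 on day 2, 170 on day 4, 241 and 69.6 on day 7 and between 1.19 and 12.4 CPM in every later library. Havcr1 was at 2247 CPM on day 1, 271 on day 2 and 1489 on day 4, and in the 2 day 7 libraries at 2847 and 1293, a spread that spans the day 1 level. Top2a was at 434 CPM on day 1 and 81.7 on day 2, and Gsta2 at 208 and 59.8. Kap was at 2941 CPM on day 1, 5400 on day 2, 19129 on day 4, 1227 and 8889 on day 7, and 43595 to 55441 in the 4 libraries of days 11 and 14, beside 52882 in the control. Slc5a2 was above its control level of 115 CPM in all 9 injured libraries, from 167 to 750 CPM, so that its day 1 rise is not particular to day 1. Days before 7 have 1 library each, and the order of their values was not tested.

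**Figure D5:**
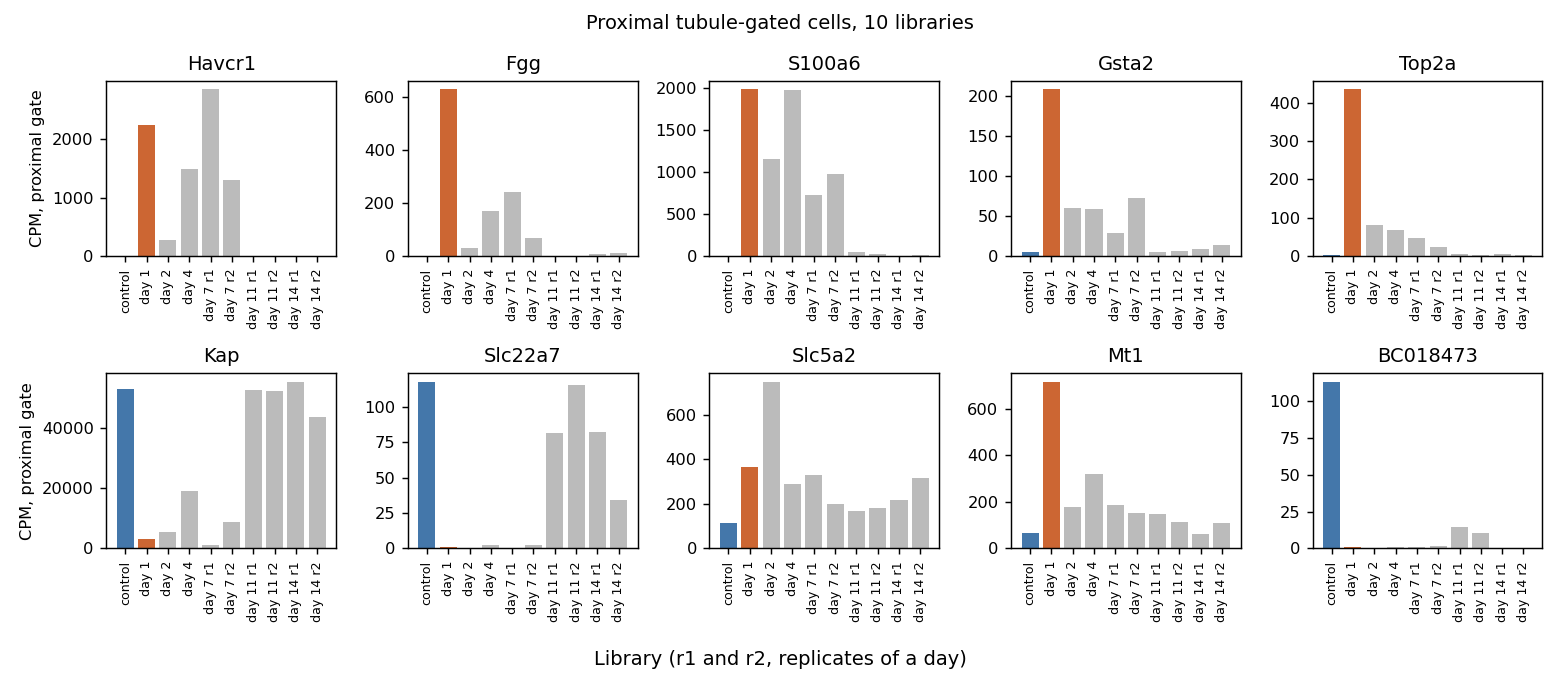
CPM of 10 genes in proximal-gated cells of each of the 10 libraries (bars from 0; control blue, day 1 orange, other days grey; r1 and r2 are the libraries of a day). Fgg, Top2a, Gsta2 and Mt1 are highest on day 1, Havcr1 is higher in 1 day 7 library, and BC018473 is high in the control and low but present on day 11.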

How the data were processed

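The libraries were made by Drop-seq, in which each cell is caught in a droplet with a barcoded bead and the 3′ ends of its RNA are sequenced, per the labels' protocols. The submitters' processing notes name Bowtie2 2.2.7 and mm10; how genes were counted and whether strand was used is not given in the sources used here. The deposited tables hold whole-number counts per gene and cell barcode, which are read here as UMI counts. Counts of cells that passed (at least 500 genes, at most 50% mitochondrial) were summed per library and gate and divided by the library's or gate's total to give CPM. A gene was tested with a mean of at least 10 CPM over all cells or 50 CPM in a gate, and called higher or lower past 2-fold. Ratio intervals (95%) are exact conditional binomial ones and share intervals are Clopper-Pearson; both cover counting error only. A control or day 1 count of 0 was replaced by a floor of 3 counts. With 1 library a side no test between conditions was made. The ratios' intervals were tested on counts simulated with counting error alone, which is what they assume. That test says nothing about spread between cells, animals or preparations.

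The genes named are the 8 with the largest ratio in each direction over all cells and in the proximal gate (mean of at least 50 CPM), 5 in each other gate, for each list the 3 largest and any past 2-fold the other way, and a fixed set of injury markers; other list members were chosen after their values were seen, and some genes the rule names are not reported here. The members and lists were chosen with earlier results of these data known. Of 160 named genes 158 were found in GENCODE M21; 54 of them overlap a gene on the other strand and 26 one on the same strand, and reads of such genes cannot be told apart if strand was not used. Doublets were not removed; leaving out the 5% of cells with the highest Scrublet scores was an alternative. Other alternatives were thinning, other filters, gates, scaling and level minimums. Python 3.11.15, numpy 2.4.6, scipy 1.17.1, pandas 2.3.3, scanpy 1.11.5 and matplotlib 3.10.9 were used.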

Additional observations from a re-analysis of the deposited data

How the results depend on the processing

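Scaling by the median ratio moved the number of higher genes to 1039 over all cells, 445 in the proximal tubule, 270 in the thick ascending limb and 310 in the distal convoluted tubule. Without a level minimum, 9317 genes were higher and 4032 lower over all cells, and with at least 50 CPM 470 and 287. With at least 100 CPM in a gate, 392 were higher and 198 lower in the proximal tubule, 225 and 163 in the thick ascending limb, 151 and 70 in principal cells, 87 and 60 in endothelium, and 241 higher in the distal convoluted tubule; fewer genes are tested at a higher minimum. The control proximal share was 65.8% with at most 25% mitochondrial UMIs and 59.5% with at least 1000 genes a cell. The day 1 proximal share was 25.6% when 3 markers were asked for and 40.8% with at least 1000 genes. Neutrophils and monocytes together made up 3.84% of day 1 cells, 2.72% with 3 markers, 2.97% thinned and 2.002% with at least 1000 genes. The other 68 values of this kind stayed within 1.5 times the count, or within the counting interval of the share; with median-ratio scaling the number of lower genes went from 575 to 828 over all cells and from 311 to 444 in the proximal gate. Of 570 ratios of 95 named genes over all cells, 295 left their counting interval and 0 reversed, and of 340 ratios of 68 genes in the proximal gate, 82 and 0. The alternatives for the gates other than the proximal one were added after seeing the data, and none was run for intercalated cells, podocytes or stroma. No paired analysis was possible because each side is 1 library, and for the same reason none could be left out. The lower depth of day 1 limits what can be seen of rare transcripts there.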
